A study of Mus musculus with 16 samples.

Results

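Tppp3, Fcgrt, Fxyd4, Nacc2, Ggt1, Nccrp1, Lcn4, Acp5, Tspan32 and Ifitm1 are 10 of the 9223 genes measured in single Pmel CD8+ T cells of mice with melanoma-associated vitiligo. They were chosen by their summed levels and shares of cells, which were high in lung and liver cells, so their contrast with skin and lymph node cells is a description here and supports nothing by itself. The number of the genes per cell restates the same contrast, since its mean is the sum of their shares. What the choice did not use is which cells within a tissue carried the genes and what else those cells carried.

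The cells came from lung, liver, skin and the draining lymph node (DLN) of C57BL/6 mice aged 16 weeks, 45 days after tumor surgery. All cells of all tissues shared the Pmel receptor, a transgenic T cell receptor for the melanocyte antigen gp100, and the congenic marker Thy1.1, and all mice were labelled as having melanoma-associated vitiligo, in which T cells that recognise melanoma also destroy normal melanocytes. No mice without vitiligo and no other T cell specificity were analysed here. The labels list 16 samples, 4 per tissue, whose titles differ within a tissue only by a lane-like ending, and nothing says whether animals were pooled, so each tissue was taken as 1 library.

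Memory CD8+ T cells fall broadly into cells that travel through blood and lymph and cells that stay in 1 organ. The transcription factor Klf2 and the lipid receptor S1pr1 let T cells leave tissue and are kept low in resident cells, which often carry the integrin chain Itgae (CD103), the chemokine receptor Cxcr6 and Cd69.

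The 10 genes belong to unrelated families. Ifitm1 encodes an interferon-induced transmembrane protein of a family that hinders virus entry, Tspan32 a tetraspanin of blood cells that restrains T cell proliferation in mice, and Fxyd4 a small membrane protein that tunes the sodium pump and is best known from kidney and colon. Fcgrt encodes the heavy chain of the neonatal Fc receptor, which pairs with beta-2-microglobulin and saves IgG and albumin from breakdown. Ggt1 encodes a cell-surface enzyme that splits glutathione outside the cell, and Acp5 the tartrate-resistant acid phosphatase known from osteoclasts and macrophages. Nacc2 encodes a BTB-domain transcriptional repressor, Tppp3 a protein that binds and bundles microtubules, Lcn4 a lipocalin, and Nccrp1 a relative of the sugar-binding F-box proteins that was first described in cytotoxic cells of fish.

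The genes lay on several chromosomes, with 4 on chromosome 7 and 2 on chromosome 2. By the GENCODE M21 annotation of GRCm38, Fcgrt (chr7:45092990-45103851), Nccrp1 (chr7:28543596-28547254), Tspan32 (chr7:143005046-143019644) and Ifitm1 (chr7:140967221-140969825) lay on chromosome 7, which held 7.35% of the 7266 tested genes with a position. Tspan32 and Ifitm1 lay 2035220 bases apart. Nacc2 (chr2:26055535-26123220) and Lcn4 (chr2:26667674-26671282) lay 544453 bases apart on chromosome 2. Tppp3 (chr8:105467493-105471526), Fxyd4 (chr6:117933559-117937692), Ggt1 (chr10:75561604-75586200) and Acp5 (chr9:22126727-22135711) were each alone on their chromosomes. CPM below are counts scaled to 1000000 per tissue. Of 32 genes with at least 10 CPM within 100000 bases of a gene of the set, 0 were at least 4-fold higher in both lung and liver than in both skin and lymph node. Nccrp1 overlaps Samd4b on the same strand, and Samd4b had 8.18 CPM in lung, 7.78 in liver, 14.0 in skin and 13.0 in lymph node, a pattern unlike that of Nccrp1. Other annotated genes overlap Fcgrt, Fxyd4, Nacc2, Acp5 and Tspan32, were not in the table used here, and could share reads with them, since the strand used in counting is not stated.

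Upstream sequence is given for the 5 genes of the set with a single start site in RefSeq. They include genes with and without residual lymph node signal. Each run is the 250 bases before that start, read 5′ to 3′ on the gene's strand, on GRCm38.p6. The GENCODE starts differ for some of these genes. The runs of Ifitm1 and Fxyd4 lie inside the GENCODE gene, and that of Fcgrt overlaps its 5′ end. Capitals mark matches, on either strand, to short motifs. The TATA box was searched as TATAAA. The GC box, a site for Sp and Klf factors, was searched as GGGCGG. A second Klf-type site, the CACCC box, was searched as CCACCC. The core site of the Runx factors, which guide the CD8+ lineage, was searched as TGTGGT. For the T-box factors of effector T cells the letters were GGTGTGA. For the Ets factors they were CCGGAA. The interferon-stimulated response element was searched as well.
Fcgrt (chr7:45103823-45104072, minus strand): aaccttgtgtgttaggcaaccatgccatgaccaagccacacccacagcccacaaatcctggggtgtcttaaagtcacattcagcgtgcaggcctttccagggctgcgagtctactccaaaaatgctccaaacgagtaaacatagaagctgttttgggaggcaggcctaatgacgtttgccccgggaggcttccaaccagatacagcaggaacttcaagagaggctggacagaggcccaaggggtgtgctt
Fxyd4 (chr6:117937336-117937585, minus strand): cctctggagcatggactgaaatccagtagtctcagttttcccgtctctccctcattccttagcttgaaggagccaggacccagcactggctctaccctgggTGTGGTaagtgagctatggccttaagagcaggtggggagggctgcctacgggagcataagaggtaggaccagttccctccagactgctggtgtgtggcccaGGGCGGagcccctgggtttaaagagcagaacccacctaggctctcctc
Lcn4 (chr2:26671283-26671532, minus strand): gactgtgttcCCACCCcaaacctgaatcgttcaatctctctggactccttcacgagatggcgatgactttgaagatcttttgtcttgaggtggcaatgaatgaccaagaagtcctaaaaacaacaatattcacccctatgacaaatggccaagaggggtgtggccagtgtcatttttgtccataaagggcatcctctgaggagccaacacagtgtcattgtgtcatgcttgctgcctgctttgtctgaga
Ifitm1 (chr7:140967826-140968075, plus strand): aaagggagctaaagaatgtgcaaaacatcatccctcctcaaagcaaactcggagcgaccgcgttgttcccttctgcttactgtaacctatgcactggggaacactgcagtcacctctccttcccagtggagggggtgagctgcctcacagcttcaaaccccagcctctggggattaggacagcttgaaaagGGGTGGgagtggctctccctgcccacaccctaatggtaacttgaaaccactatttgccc
Tspan32 (chr7:143004796-143005045, plus strand): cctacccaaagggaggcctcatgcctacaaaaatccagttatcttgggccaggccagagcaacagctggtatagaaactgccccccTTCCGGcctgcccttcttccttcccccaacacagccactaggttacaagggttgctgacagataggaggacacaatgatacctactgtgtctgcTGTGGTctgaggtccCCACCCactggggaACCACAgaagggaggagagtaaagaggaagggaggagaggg

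Among 32851 windows of the same length, the TATA box stood in 12.4%, the GC box in 32.7%, the CACCC box in 28.1%, the RUNX letters in 14.0%, the T-box letters in 3.33%, the ETS letters in 12.0% and the interferon-response letters in 2.98%. The 8 genes of the set with an entry had 14 such windows. Of these, 7 held a GC box, 5 a CACCC box and 3 the RUNX letters. A GC box stood in at least 1 window of 4 genes (Fxyd4, Nacc2, Acp5 and Ggt1), a CACCC box in 4 (Lcn4, Ifitm1, Tspan32 and Ggt1), the RUNX letters in 3 (Fxyd4, Tspan32 and Ggt1), the ETS letters in 1 (Tspan32) and the TATA box in 1 (Ggt1). The T-box letters and the interferon-response letters stood in 0 of the 14 windows. That of Ifitm1 is included, but it lies inside the GENCODE gene, and sequence before the GENCODE start was not searched. In 1 window of Ggt1 the GC and CACCC boxes overlapped. None of these motifs stood in all 8 genes, and Fcgrt had none of them. Tppp3 and Nccrp1 had no entry.

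The table held 2322 lung, 556 liver, 1224 skin and 1625 lymph node cells, with 8072278, 1928185, 3292210 and 4532333 counts in all and medians of 2943, 3096, 2518 and 2649 counts per cell. All 8 CD8+ T cell markers looked up were present in every tissue, which fitted the label. After the thinning described below, Cd8b1 was found in 99.3% of lung, 98.5% of liver, 88.0% of skin and 93.6% of lymph node cells. Cd8a was found in 72.1%, 69.75%, 90.4% and 92.6% in that order, and Cd3g in 94.8%, 94.3%, 98.9% and 98.7%. The shares of these markers thus differed between lung and liver on one side and skin and lymph node on the other. Of the markers of other cells, no hepatocyte, dendritic cell or red cell gene was in the table. The summed myeloid level was 49.7 CPM in lung, 24.9 in liver, 12.8 in skin and 15.2 in lymph node, with Csf1r and Adgre1 at 0 in all of them, and their part in the results was not tested. Of the natural killer cell list 2 of 7 genes were in the table, Gzma among them. The column names of skin and lymph node cells carry a 2 that those of lung and liver cells lack, and 14 listed pseudogenes summed to 2149 CPM in lung and 2103 in liver but 7766 in skin and 7074 in lymph node. The contrast of lung and liver with skin and lymph node therefore runs along a library difference, and tissue, library and cell preparation, in which lung and liver alone went through a Percoll gradient, cannot be told apart. Lung shared 7 cell barcodes with skin, 7 with lymph node and 1 with liver, and skin shared 4 with lymph node.

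Levels are sums over the cells of a tissue in CPM, with exact 95% intervals that cover counting error only, as no tissue has a second library. Shares are the percent of cells with at least 1 count after every cell was thinned at random to 1886 counts, the 10th percentile, which keeps 2049 lung, 529 liver, 1083 skin and 1494 lymph node cells.

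Among the membrane proteins, Ifitm1 had 10703 CPM in lung and 8324 in liver, against 1164 in skin and 844 in lymph node. At equal depth it was found in 92.1% of lung cells (90.9 to 93.3) and 83.2% of liver cells (79.7 to 86.3), against 26.9% in skin (interval 24.25 to 29.6) and 19.2% in lymph node (17.2 to 21.3). The difference lay in the amount per cell as well as in the number of cells with a count. The median cell with Ifitm1 held 22 counts of it in lung and 18 in liver, against 5 in skin and 5 in lymph node, and cells with 10 or more counts were 76.4% of lung and 65.6% of liver cells, against 8.22% of skin and 5.56% of lymph node cells. Most lung and liver cells were thus high in Ifitm1, while skin and lymph node each held a small group of high cells. Ifitm genes resemble each other in sequence, and how reads shared between them were divided affects each value.

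Fxyd4 stood at 143 CPM in lung and 118 in liver, against 18.8 in skin and 5.52 in lymph node, and was found in 22.2%, 17.8%, 3.51% and 1.004% of their cells at equal depth. Tspan32 stood at 115 CPM in lung and 72.1 in liver, against 4.25 in skin and 30.9 in lymph node, and in 14.8%, 9.83%, 0.646% and 4.62% of cells. The residual signal of these genes went to different tissues, since Fxyd4 was higher in skin than in lymph node (3.41-fold, 2.11 to 5.67) and Tspan32 was lower in skin than in lymph node (ratio 0.138, 0.0734 to 0.239).

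Fcgrt had 338 CPM in lung and 274 in liver, against 9.11 in skin and 12.8 in lymph node, and its share was 42.4% of lung and 35.35% of liver cells, against 1.48% of skin and 1.54% of lymph node cells. It was the gene of the set with the highest ratio of its lower level in lung and liver to its higher level in skin and lymph node, 21.4-fold. Its partner B2m had 7278 CPM in lung and 7251 in liver, against 6719 in skin and 7121 in lymph node.

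Of the enzymes, Ggt1 had 71.1 CPM in lung and 63.8 in liver, against 0.6075 in skin and 3.97 in lymph node. The skin value is 2 counts, so the ratio of lung to skin, 117-fold, has an interval from 32.3 to 969. It was 55.3 as a mean over cells and 232 without the cell with the most counts of the gene in each tissue. Its share was 10.8% of lung and 9.26% of liver cells, against 0.0923% of skin and 0.669% of lymph node cells. Acp5 was the least separated gene, with 93.8 CPM in lung and 115 in liver, against 16.7 in skin and 54.5 in lymph node. It was found in 16.5% of lung and 22.3% of liver cells, against 2.77% of skin and 9.505% of lymph node cells, and its ratio to lymph node was 1.72 (1.49 to 1.995) in lung and 2.11 (1.75 to 2.54) in liver.

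Tppp3 had 358 CPM in lung and 269 in liver, against 106 in skin and 3.09 in lymph node. It was found in 37.8% of lung, 29.1% of liver, 10.99% of skin and 0.535% of lymph node cells. Skin was therefore an intermediate tissue for Tppp3, 34.4-fold above lymph node (20.2 to 63.6), while lung was 3.37-fold above skin (3.01 to 3.77).

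The repressor gene Nacc2 had 50.3 CPM in lung and 28.0 in liver, against 1.52 in skin and 1.10 in lymph node, where 5 counts were found in each. Nccrp1 had 54.9 CPM in lung and 49.8 in liver, against 1.52 in skin and 3.09 in lymph node. Lcn4 had 125 CPM in lung and 101 in liver, against 10.6 in skin and 17.4 in lymph node. At equal depth Nacc2 was found in 8.49% of lung and 5.86% of liver cells, Nccrp1 in 8.74% and 8.51% and Lcn4 in 22.1% and 17.8%. In skin and lymph node, the shares of Nacc2 and Nccrp1 lay between 0.268% and 0.669%, and those of Lcn4 were 2.03% and 3.08%.

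**Figure D1:**
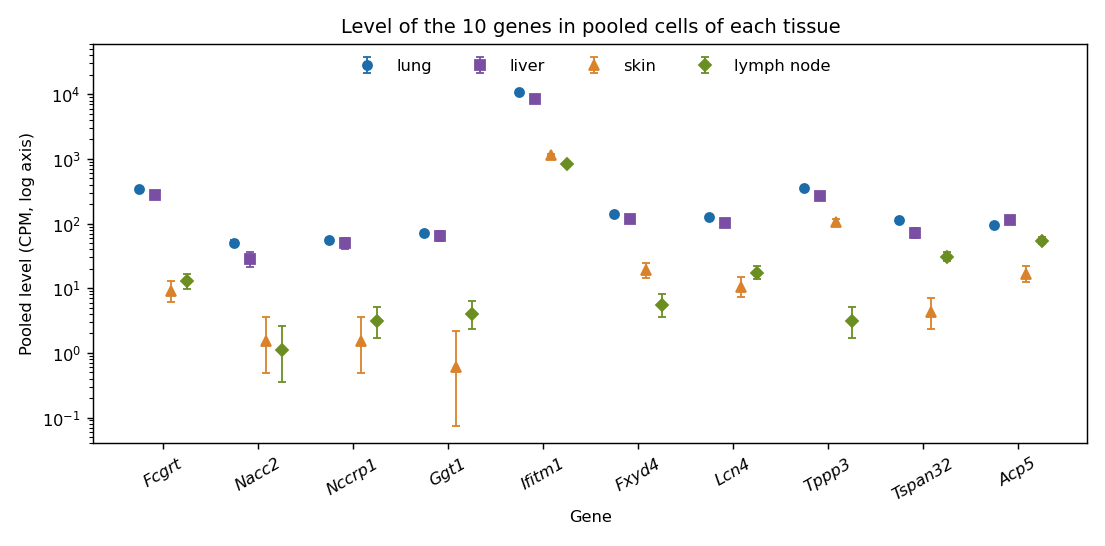
Pooled level of each of the 10 genes (log axis, CPM) in lung, liver, skin and lymph node cells, with genes ordered by the ratio of their lower level in lung and liver to their higher level in skin and lymph node. Points are sums over 1 library per tissue and bars are exact 95% intervals of the count, and Fcgrt at the left is separated by 21.4-fold and Acp5 at the right by 1.72-fold.

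At a threshold of 4-fold, 7 of the 10 genes were higher in both lung and liver than in both skin and lymph node, where 0.628% of 7480 genes were, counting those that reached 10 CPM in some tissue. Lcn4, at 5.80-fold, was the gene just inside the threshold and Tppp3, at 2.53-fold, the one just outside, with Tspan32 at 2.33-fold and Acp5 at 1.72-fold. Against skin, 9 genes passed in lung (1.42% of all genes) and 9 in liver (1.36%), and against lymph node 8 passed in lung (1.12%) and 8 in liver (1.51%). These counts restate the choice of the genes.

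Lung and liver differed little. The 10 lung-to-liver ratios ran from 0.81 to 1.80, with a median log2 ratio of 0.30 where the median of all genes was 0.04, and 0 of the 10 genes passed 4-fold in lung over liver (0.201% of genes) or in liver over lung (0.388%). Nacc2 had the highest ratio, 1.80 (1.35 to 2.43), and Tspan32 the next, 1.595 (1.33 to 1.92). Acp5 alone was lower in lung than in liver (0.8145, 0.700 to 0.9503), and the intervals of Ggt1 and Nccrp1 held equality. Between skin and lymph node, Tppp3 alone passed 4-fold in skin (2.33% of genes), and the ratios ran from 0.138 for Tspan32 to 34.4 for Tppp3. Tspan32 and Ggt1 (0.153, 0.0172 to 0.639) were more than 4-fold lower in skin. By level, 4 of the 10 genes were higher in skin, but the interval of Nacc2 among them held equality (1.38, 0.317 to 5.98). For the last 2 statements no share over all genes was computed.

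To see which shares could be stray RNA, each was set beside the highest share among genes of other cell types in the same tissue, namely Lyz2, Scgb1a1, Igkc, Cd79a and Apoe. Cd74 was left out of that maximum because activated mouse T cells can hold it; its share was 6.93% in lung, 9.45% in liver, 18.2% in skin and 21.1% in lymph node. The highest share was 5.37% in lung (Lyz2, 2049 cells), 2.08% in liver (Scgb1a1), 2.22% in skin (Apoe) and 1.87% in lymph node (Igkc). In lung and liver all 10 genes stood above it, where their high shares were part of the choice. In skin, Tppp3, Fxyd4 and Ifitm1 stood above it, and the intervals of the other 7 reached it or lay below it. In lymph node, Lcn4, Acp5, Tspan32 and Ifitm1 stood above it, and the intervals of the other 6 reached it or lay below it. Fcgrt, Nacc2, Ggt1 and Nccrp1 were thus near background in both skin and lymph node, at this depth. These calls depend on the background genes, and no share over all genes was computed for them. With all 14 listed genes of other cells taken, a choice made after the data were seen, the highest share was 4.16% in liver (Cd68), 4.155% in skin (Perp) and 2.21% in lymph node (Pecam1). Nacc2 in liver and Fxyd4 in skin then reached background, and the other calls stood.

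**Figure D2:**
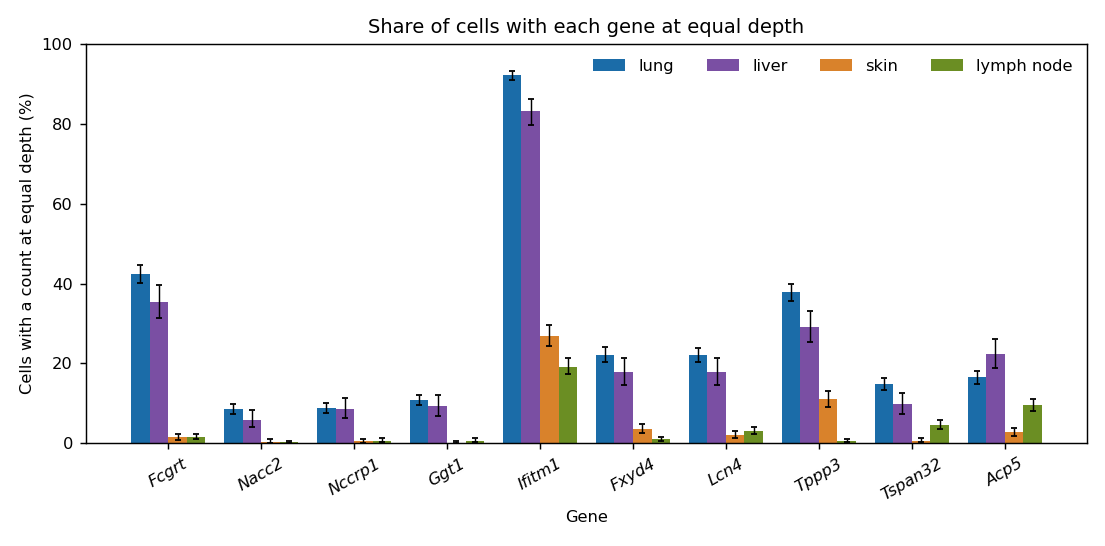
Percent of cells with at least 1 count of each gene after thinning to 1886 counts, in lung, liver, skin and lymph node, in the gene order of the plot of levels. Bars start at 0 and error bars are exact 95% Clopper-Pearson intervals, and Ifitm1 is the gene found in most lung and liver cells (92.1% and 83.2%), while Tppp3 keeps 10.99% in skin and Acp5 9.505% in lymph node.

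The number of the genes per cell followed from the shares above, so its contrast between tissues is fixed by the choice of the genes. At equal depth a lung cell held a mean of 2.76 of the 10 genes and a liver cell 2.39, against 0.492 in skin and 0.411 in lymph node. The share of cells with 3 or more was 53.4% in lung (51.2 to 55.6) and 43.1% in liver (38.8 to 47.4), against 0.646% in skin (0.260 to 1.33) and 0.870% in lymph node (0.464 to 1.48). Cells with none were 2.78% of lung and 7.75% of liver cells, against 60.1% of skin and 66.0% of lymph node cells. The highest number in 1 cell was 8 in lung, 7 in liver, 4 in skin and 5 in lymph node. These shares depend on depth and on Ifitm1. Without Ifitm1, 29.4% of lung and 23.6% of liver cells held 3 or more of the remaining genes, against 0.0923% of skin and 0.268% of lymph node cells.

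**Figure D3:**
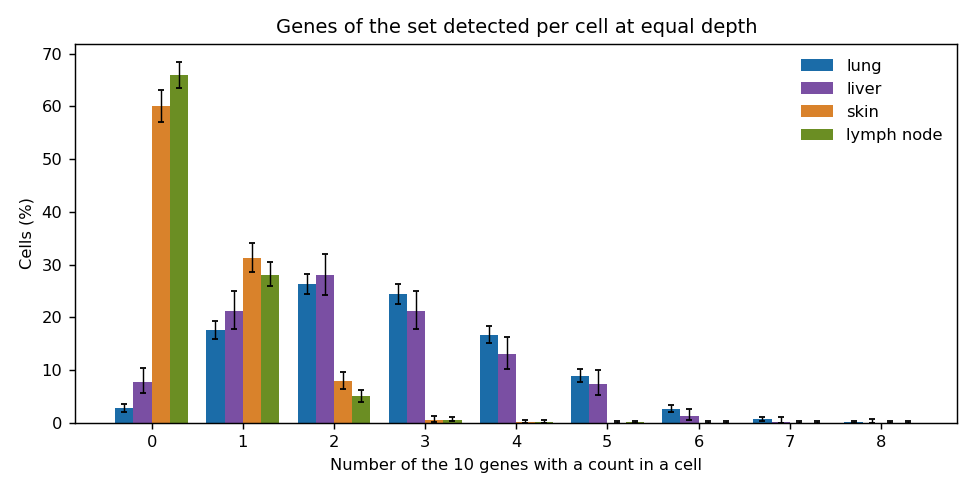
Distribution of the number of the 10 genes with a count in a cell (horizontal axis) as percent of cells of each tissue at equal depth, with exact 95% Clopper-Pearson intervals. Lung and liver cells center on 2 and 3 genes, while 60.1% of skin and 66.0% of lymph node cells hold none.

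Within lung, the genes were found together slightly more often than the product of their shares gives. Of the 45 pairs, 39 lay above the product, where 50.2% of 5939181 pairs of genes in at least 5% of lung cells did. The median ratio of observed to product was 1.14 and ran from 0.789 to 1.56, while over all pairs it was 1.0 with the 5th and 95th percentiles at 0.712 and 1.31. In liver 32 of the 39 pairs with a product of at least 5 cells lay above it, where 49.1% of 4105198 pairs did, with a median of 1.14 and a range from 0.776 to 1.997 beside percentiles of 0.616 and 1.40. The median pair of the set lay inside these percentiles in both tissues, and the cells of a tissue share 1 library.

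The pairs farthest above the product in lung were Fxyd4 with Nacc2 (60 cells against 38.6, ratio 1.56), Fxyd4 with Ggt1 (73 against 49.0, 1.49), Nccrp1 with Acp5 (44 against 29.5, 1.49) and Fcgrt with Nacc2 (109 against 73.7, 1.48). In liver they were Nacc2 with Lcn4 (11 cells against 5.51, ratio 1.997), Fxyd4 with Ggt1 (16 against 8.71, 1.84), Fcgrt with Tspan32 (33 against 18.4, 1.795) and Fcgrt with Nacc2 (19 against 10.96, 1.73). Fxyd4 with Ggt1 and Fcgrt with Nacc2 were thus among the highest 4 in both tissues. Pairs that held Ifitm1 lay between 0.999 and 1.06 in lung, where Ifitm1 is in 92.1% of cells and leaves the ratio little room. By shares, Fcgrt was found in 43.6% of lung cells with Ifitm1 and 27.95% of those without, and Tppp3 in 39.0% and 24.2%. Nacc2 with Nccrp1 was the lowest pair in lung (12 cells against 15.2).

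**Figure D4:**
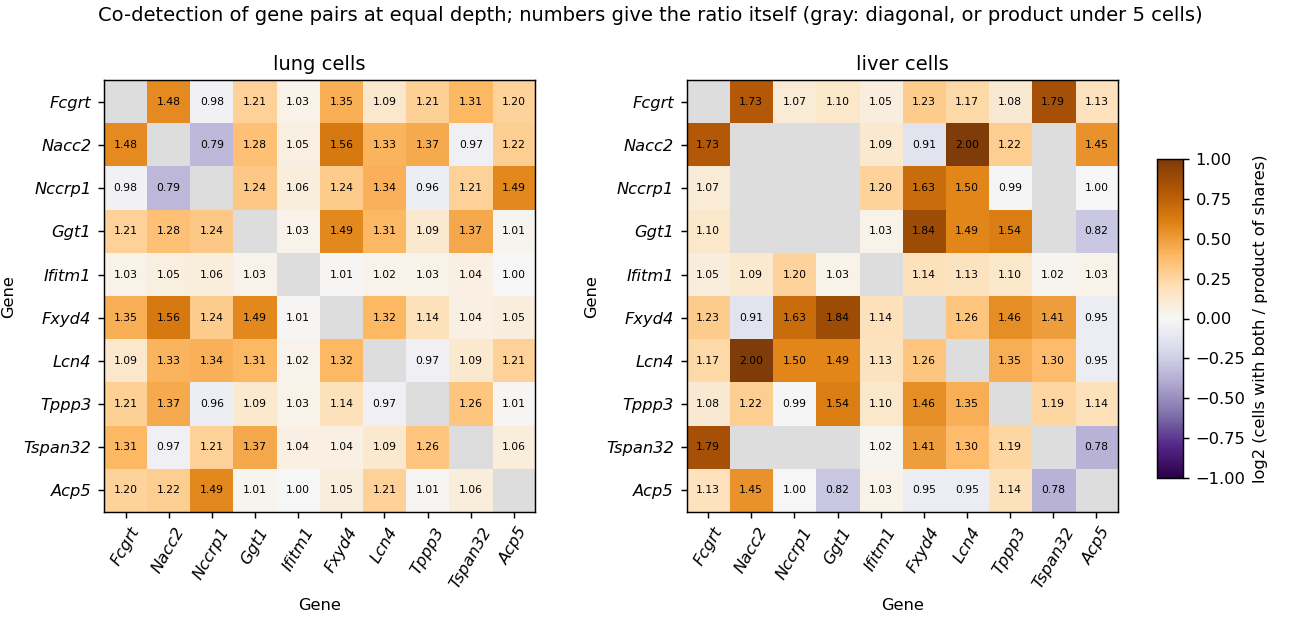
Ratio of lung cells (left) and liver cells (right) with both genes of a pair to the number given by the product of the 2 shares, at equal depth, with color on a log2 scale and the ratio written in each square. Gray squares are the diagonal and, in liver, pairs with a product under 5 cells, and Fxyd4 with Ggt1 is above 1 in both tissues (1.49 in lung and 1.84 in liver).

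In lung, liver and skin, cells with Ifitm1 more often held at least 1 of the other 9 genes. No share over all genes was computed for this division. At least 1 of the 9 was found in 83.5% of lung cells with Ifitm1 and 64.6% without, and in 80.7% and 53.9% of liver cells. In skin the shares were 26.1% and 17.8%, and in lymph node 23.7% and 18.3%. The intervals overlapped in lymph node (18.9 to 29.0 with Ifitm1 and 16.2 to 20.6 without). The genes differed in this. In lung, Acp5 was found in 16.5% of cells with Ifitm1 and 16.8% without, and Fxyd4 in 22.3% and 20.5%, with overlapping intervals. In skin, Lcn4 was found in 5.50% of cells with Ifitm1 and 0.758% of cells without, and in lymph node in 6.62% and 2.24%. Fxyd4 was found in 3.83% of lymph node cells with Ifitm1 and 0.331% without, in 11 cells with both where the product of shares gives 2.88. In skin Fxyd4 was found in 3.09% and 3.66%. Tspan32 went the other way in lymph node, in 1.74% of cells with Ifitm1 and 5.30% of cells without.

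In skin, Fxyd4 was found more often in cells with Tppp3, in few cells. Both were found in 12 cells, where the product of their shares gives 4.18, under the minimum of 5 used for pairs above. For Acp5 with Tppp3 the product is 3.30 cells. Of 45 ordered pairs in skin, 5 were higher with intervals apart. No share over all genes was computed for a division by Tppp3. It was found in 10.1% of the 119 skin cells with Tppp3 (5.32 to 16.95) and in 2.70% of the 964 without (1.77 to 3.93). Acp5 was found in 0 of the 119 skin cells with Tppp3, which allows up to 3.05%, and in 3.11% of those without. Ifitm1 was found in 26.9% of skin cells with Tppp3 (19.2 to 35.8) and in 26.9% of those without (24.1 to 29.8).

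Cells were then divided by genes that mark the state of a CD8+ T cell. Gzma, the granule protease granzyme A, was found in 91.5% of lung, 83.0% of liver, 27.9% of skin and 19.4% of lymph node cells. A gene of the set was counted as higher when its intervals in cells with and without the state gene did not overlap, a description of cells of 1 library. With Gzma, 7 of the 10 genes were higher in lung, where 3.51% of 3446 genes were, and 4 in liver (1.12% of 3405). Fcgrt was found in 45.0% of lung cells with Gzma and 13.8% without, and in 41.9% of liver cells with Gzma and 3.33% without. Tppp3 was found in 39.6% of lung cells with Gzma and 19.0% without, and Tspan32 in 15.7% and 5.17%. Cells with Gzma held a mean of 2.86 of the genes in lung and 2.62 in liver, and cells without it 1.695 and 1.26.

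Ly6c2, a surface protein of circulating effector and memory cells, gave a like division. With it, 4 of the 10 genes were higher in lung (1.39% of all genes) and 3 in liver (0.764%), Fcgrt and Ifitm1 in both. Fcgrt was found in 45.9% of lung cells with Ly6c2 and 30.7% without, and in 41.4% and 24.2% of liver cells. With Gzmk, granzyme K, 4 genes were higher in lung (0.958%) and 1, Fcgrt, in liver (0.558%). With Klf2, 2 genes were higher in lung (Fcgrt and Fxyd4, 1.45%) and 1 in liver (Ifitm1, 0.617%). With S1pr1, found in 365 lung and 116 liver cells, 0 of the 10 genes were higher in lung (0.522%) or in liver (0.264%). The mean number of the genes per cell was still 2.99 with S1pr1 and 2.71 without in lung, and 2.67 and 2.31 in liver. With Itgax, 3 genes were higher in lung (0.58%) and 2 in liver (0.323%). With Itgb1, 3 genes were higher in lung (1.07%) and 0 in liver (0.147%). With Gzmb, 3 genes were higher in lung (1.45%) and 0 in liver (0.264%). With Tcf7, found in only 29 lung and 22 liver cells, 0 genes were lower in lung (0.348%) and 2 in liver (0.264%). With Cxcr6, Fcgrt was higher in lung (1 of 10, 0.813%) and 0 genes in liver (0.47%). With Cd69, Ifitm1 was lower in lung (1 of 10, 0.377%), at 88.4% against 93.0% in cells without it, and 0 genes were lower in liver (0.411%). With Bcl2, a survival gene found in 105 of the lung cells, 3 genes were lower in lung (Tppp3, Fcgrt and Tspan32, 3.05%), Fcgrt at 15.2% against 43.8% in cells without Bcl2.

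The residency integrin Itgae divided the cells less in lung and liver by the mean number of genes than Gzma did. In lung, Fcgrt and Fxyd4 were higher in cells with Itgae (0.493% of all genes), Fcgrt at 48.2% against 40.0% and Fxyd4 at 26.8% against 20.3%. In liver, 0 of the 10 genes were higher (0.235%). The mean number of genes per cell was 2.91 with Itgae and 2.70 without in lung, 2.59 and 2.31 in liver, 0.444 and 0.567 in skin, and 0.380 and 0.438 in lymph node.

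**Figure D5:**
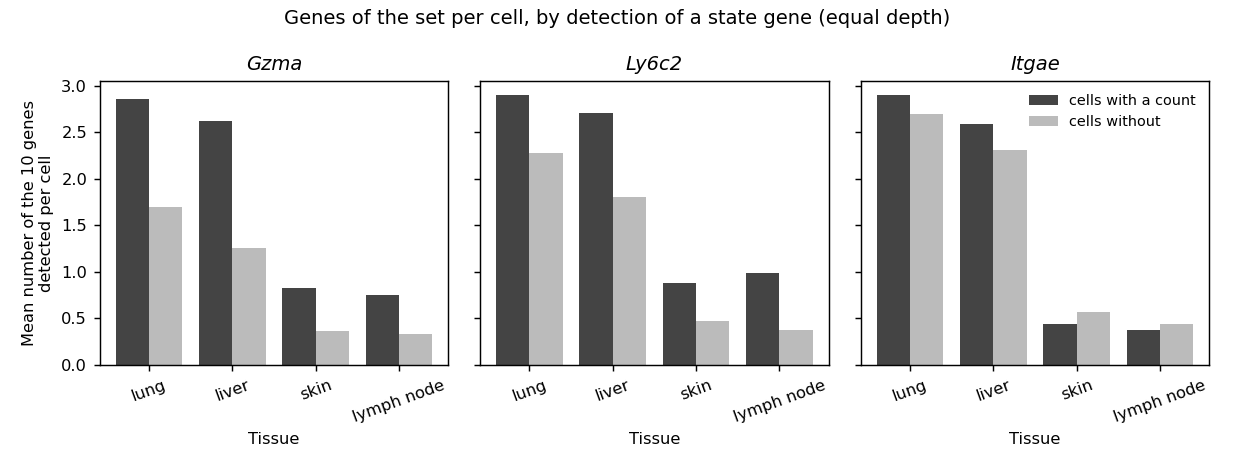
Mean number of the 10 genes with a count per cell at equal depth, in cells with (dark) and without (light) a count of Gzma, Ly6c2 or Itgae, in each tissue. Cells with Gzma or Ly6c2 hold more of the genes in all 4 tissues, while for Itgae the means are close (2.91 and 2.70 in lung).

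In skin and lymph node, 39.9% and 34.0% of cells held at least 1 of the genes. In skin, Lcn4 and Ifitm1 were higher with Gzma (2 of 10, 0.802% of 7479 genes), Lcn4 in 5.30% of cells with it and 0.768% without, and Ifitm1 in 56.0% and 15.6%. The same genes were higher in skin cells with Ly6c2 (0.842%), and 1 gene, Tppp3, was lower (0.642%), in 1.54% of 65 cells with Ly6c2 and 11.6% without. In lymph node, 5 genes were higher with Ly6c2 (0.695%), namely Fcgrt (9.33% of 75 cells with it against 1.13% without), Fxyd4, Ggt1, Lcn4 and Ifitm1, and 3 with Gzma (Fxyd4, Lcn4 and Ifitm1, 0.682%). Acp5 and Tspan32 followed other state genes in lymph node. Both were higher with Klf2 (2 of 10, 0.749%), Acp5 in 14.4% and 8.10% and Tspan32 in 9.01% and 3.36%. With Cxcr6 both were lower (2 of 10, 1.82%), Acp5 in 8.08% and 21.7% and Tspan32 in 3.22% and 16.6%. Another gene of the set was higher with Cxcr6 (1 of 10, 3.24%).

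Lung cells with 3 or more of the genes (1094 cells) were set beside those with none (57 cells), and likewise in liver (228 and 41 cells). The cells with 3 or more had more counts before thinning, with medians of 3253 and 2417 counts in lung and 3285 and 3033 in liver, and the part of depth in these differences was not tested. Cells with none lack Ifitm1, which was found in 92.1% of all lung and 83.2% of all liver cells, so this contrast is also one of Ifitm1. How many of all genes differed was not computed. Among 2323 genes compared in lung and 2177 in liver, Ly6c2 differed most in both tissues. It was found in 82.4% and 19.3% of lung cells and 75% and 12.2% of liver cells. Gzma followed, in 96.7% and 68.4% of lung and 93.4% and 36.6% of liver cells. Ifitm2, a relative of Ifitm1, was found in 48.45% and 22.8% of lung cells and 43.0% and 9.76% of liver cells, and Pycard, the inflammasome adaptor ASC, in 73.5% and 49.1% and in 63.6% and 24.4%. The sodium pump subunit Atp1b3 was found in 45.25% and 21.1% of lung cells. Lower in the cells with 3 or more were Rgs1 in lung (26.9% and 50.9%), a regulator of chemokine receptor signals, and in liver Ifi27l2a (27.2% and 58.5%) and Serpina3g (7.46% and 36.6%).

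Genes were then ranked by likeness of tissue pattern to the set, the ratio of the lower level in lung and liver to the higher level in skin and lymph node. Ranked were 1871 genes that reached 50 CPM and 10% of cells in lung and in liver alike. Left out of this ranking and of the one just above were genes with ribosomal, mitochondrial, T cell receptor, immunoglobulin, predicted-gene or pseudogene names. Outside the set, the 10 highest were Ly6c2 (21.25-fold), Itgax (8.90), Gzma (7.89), Rom1 (6.86), Slc36a3os (6.495), S1pr1 (6.43), Klre1 (6.345), Esm1 (5.43), Gzmk (4.75) and Car5b (4.15). Of the set, Fcgrt ranked first, just above Ly6c2, while Tppp3, Tspan32 and Acp5 ranked 30, 38 and 62, and Nacc2 and Nccrp1 did not reach these minimums. The measure rests on 4 libraries, 1 per tissue. Ly6c2 had 1560 CPM in lung and 1393 in liver, against 64.7 in skin and 65.5 in lymph node, and S1pr1 had 99.4 and 144 CPM against 5.47 and 15.4.

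Lists of genes related to each gene of the set were then examined by how many had an interval of the ratio that left out equality. By that rule 19.2% of 9032 genes were higher and 37.0% lower in lung than in skin, 12.7% higher and 51.5% lower in lung than in lymph node, 13.4% higher and 30.1% lower in liver than in skin, and 10.9% higher and 41.4% lower in liver than in lymph node. All 10 genes of the set were higher in each, by their choice. The median log2 ratio over these genes was -0.21, -0.41, -0.25 and -0.45 in that order, and scaling by median-of-ratios size factors added 0.08, 0.15, 0.10 and 0.18 to every log2 ratio, with 0 calls of list genes turned round; counts that the scaling moved are given beside them.

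Of the 4 measured genes of the FXYD and sodium pump list, 3 were higher and 1 lower in lung than in skin and likewise in liver than in skin, and all 4 were higher in lung and in liver than in lymph node. The pump subunit Atp1b3 and the FXYD relative Fxyd5 were higher in all 4 comparisons. Atp1b3 had 287 CPM in lung and 286 in liver, against 94.8 in skin and 102 in lymph node. Fxyd5 had 1915 CPM in lung and 2000.3 in liver, against 1324 in skin and 1122 in lymph node.

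Of the 3 Ifitm relatives in the table, Ifitm2 and Ifitm3 were higher in lung and liver than in skin and lymph node. Ifitm2 had 548 CPM in lung and 477 in liver, against 262 in skin and 108 in lymph node, and Ifitm3 had 76.4 and 98.0 CPM, against 14.9 and 47.9. Ifitm10 was lower in lung (49.6 CPM) and liver (56.0) than in lymph node (129), and lower in lung than in skin (69.3), while the liver and skin interval held equality.

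The other lists were as follows. Of 16 measured glutathione genes, 4 were higher and 8 lower in lung than in skin (6 and 7 under size factors). Against lymph node, 7 were higher and 4 lower in lung (8 and 4 under size factors). Gstp1 had 13.5 CPM in lung and 9.85 in liver, against 143 in skin and 189 in lymph node. Of 13 tetraspanins measured in lung and lymph node, 3 were higher and 7 lower in lung (4 and 6 under size factors), with Tspan2 at 14.5 CPM in lung against 1.54 in lymph node. Of 11 genes of the Fc receptor and class I list, 4 were higher and 6 lower in lung than in lymph node (4 and 5 under size factors). Fcer1g was among the higher, with 19.2 CPM against 4.85. Of 16 acid phosphatase and lysosome genes, 3 were higher and 4 lower in lung than in lymph node, or 5 higher and 3 lower under size factors, and Acp1, Acp2 and Acp6 were not among the higher with totals. Of 8 co-repressor genes related to Nacc2, 1 was higher in lung than in lymph node (Zbtb32) and 6 were lower, Nacc1 included. Under size factors 1 was higher and 5 were lower. Of 8 measured genes of the tubulin and TPPP list, Stmn1 included, 0 were higher and 7 lower in lung than in skin. Against lymph node, 4 of them were higher and 2 lower in lung (5 and 1 under size factors). Of the F-box relatives of Nccrp1, Fbxo27 was higher in lung (8.05 CPM) than in skin (1.82) and lymph node (1.99), and Fbxo6 lower in lung (31.6) than in lymph node (39.7), a call lost under size factors. In the imprinted cluster around Tspan32, 1 of 2 measured genes was higher in lung than in skin, Tssc4 with 15.2 CPM against 9.72, and 2 of 2 (1 under size factors) were lower in liver than in lymph node, Tssc4 with 6.74 CPM against 19.9. Nap1l4 had 80.9 CPM in lung and 76.2 in liver, against 90.2 in skin and 96.4 in lymph node. Of the lipocalin list only Fabp5, a fatty acid binding protein, was measured, at 22.8 CPM in lung and 26.4 in liver, against 31.9 in skin and 20.3 in lymph node; it was lower in lung than in skin, and the other 3 intervals held equality, though under size factors it was higher in liver than in lymph node.

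The last lists were of cell state. Of 16 circulating memory genes measured in lung and lymph node, 11 were higher and 4 lower in lung (11 and 3 under size factors). Klf2 had 1115 CPM in lung and 1616 in liver, against 134 in skin and 276 in lymph node. Of 14 measured in liver and lymph node, 9 were higher and 2 lower in liver (10 and 2 under size factors). Against skin, 9 of 14 were higher and 4 lower in lung (9 and 3 under size factors). In liver, 8 of 13 were higher and 5 lower than in skin (8 and 4 under size factors). Ccr7, a chemokine receptor that guides cells into lymph nodes, was lower in lung (3.59 CPM) than in lymph node (18.1 CPM). Of 16 residency genes, 0 were higher and 16 lower in lung than in skin and 0 higher and 14 lower in liver than in skin, with median log2 ratios of -1.88 and -1.63. Against lymph node, 3 were higher and 12 lower in lung (4 and 12 under size factors). In liver 3 were higher and 11 lower than in lymph node (3 and 8 under size factors).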

How the data were processed

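The measurement was single-cell RNA sequencing of Pmel CD8+Thy1.1+ T cells of lung, liver, skin and draining lymph node. Whole-number counts for 9223 genes in 5727 cells were deposited by the authors in a single table whose column names give the tissue. Per the submitters' processing notes, Bowtie and RSEM were used with mm10. The sources used here do not state whether counts are of molecular identifiers or how cells were filtered.

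CPM came from each tissue's summed counts over its total. Ratios have exact 95% Poisson intervals and shares have Clopper-Pearson intervals, both for counting error only. With 1 library per tissue nothing was tested across samples. Cells were thinned to 1886 counts, which left out 572. In ranking, a count of 0 was set at 3 counts. No doublet caller was run, and an alternative left out 360 cells above 2 times their tissue's median count. Pairs, state genes and lists of genes were described as in the text. Alternatives were other thinning depths and seeds, other fold thresholds, median-of-ratios size factors, means over cells and leaving out the cell with most counts. Named genes are the 10 genes, the list, state and background genes, the 10 genes of most similar pattern, and the 8 genes that differed most between cells with 3 or more of the genes and cells with none. The genes and lists were chosen with earlier results of these data known. Simulated counts served to check the ratios and their intervals. Python 3.11.15, numpy 2.4.6, scipy 1.17.1, pandas 2.3.3 and matplotlib 3.10.9 were used. Some genes of the related lists are not reported here.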

Additional observations from a re-analysis of the deposited data

How the results depend on the processing

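No paired analysis was possible because each tissue was 1 library and no result came from a test over samples. The count of genes at least 4-fold higher in lung and liver than in skin and lymph node was 7, and 4 at an 8-fold threshold. It was 9 at a 2-fold threshold and 7 under size factors, without the cell with the most counts, without cells above 2 times the median, and as a mean over cells. Of 240 recomputed ratios (60 ratios under 4 alternatives), 223 stayed within their interval and 17 moved further. Turning round was counted only for ratios whose interval left out equality, and 0 of those did. The share of cells with 3 or more of the genes moved with depth. At 2166 counts (the 20th percentile) it was 60.8% in lung and 48.3% in liver. At 1000 counts it was 28.4% in lung, 22.3% in liver, 0.0822% in skin and 0.251% in lymph node. Without thinning it was 64.9%, 58.5%, 1.55% and 1.60% in the same order. In cells with Gzma (added after the data were seen) it was 56.4%, 48.5%, 1.99% and 3.10%, and without Ifitm1 (also added) 29.4%, 23.6%, 0.0923% and 0.268%. Lung and liver lay above skin and lymph node in each of these. The pairs above the product of shares in liver were 19 of 23 at 1000 counts, where fewer pairs reached a product of 5 cells. Among cells with Gzma, 37 of 45 pairs in lung and 28 of 40 in liver lay above it. No share over all gene pairs was computed at 1000 counts or in cells with Gzma. The genes near background numbered 7 in skin at each depth and seed, and 6 or 7 in lymph node. They numbered 8 in skin and 6 in lymph node with all markers of other cells as background (added after the data were seen). For these counts no share over all genes was computed. Depth limits the low genes most, as Ggt1 has 2 counts in skin and Nacc2 has 5 in skin and 5 in lymph node.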
